A study of Drosophila melanogaster with 9 samples.

Results

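The 3 wild-type control libraries of a whole-fly RNA-seq study of *Drosophila melanogaster* are described here, chosen by their label as controls from 9 libraries in all. The controls, WT 1, WT 2 and WT 3, were adults of 10 to 11 days in the Canton S background, wild-type in genotype, with no obese grandparent and no heterozygous parent. The study set them beside 2 groups of 3 libraries whose wild-type flies had an obese grandfather, with descent through the father in GP/P and through the mother in GP/M. The series title names AKHR mutants and obese flies as the ancestors. Each replicate number came from a separate experimental replicate, so the spread between the WT libraries includes the spread between experiments. RNA was taken from lysates of whole flies, and poly(A) RNA was sequenced. The labels do not give the sex of the flies or how many were pooled. The GP libraries are used below only to show how genes that varied between the controls varied within each of those groups, and group levels are not compared.

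A whole-fly library mixes the RNA of every organ, so an abundant transcript may come from a large tissue or from a small one that makes little else. Accessory glands and the ejaculatory duct and bulb secrete seminal fluid peptides, and the testis makes sperm. The fat body stores lipid and makes hemolymph proteins, oenocytes make the waxy hydrocarbons of the cuticle, the midgut secretes digestive enzymes, and photoreceptors hold large amounts of a single rhodopsin. In such bulk samples fewer cells of a type and less RNA per cell cannot be told apart.

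The libraries held 25145748, 23892247 and 21777118 counts assigned to genes for WT 1, WT 2 and WT 3. Levels are given as counts per 1000000 counts of the library (CPM), of which 1 was 21.8 counts at the shallowest depth, and a share of 1% of counts had an exact 95% binomial interval of 0.996% to 1.004%, which covers counting error only. Of 13073 genes listed, 13066 had a count in all 3 WT libraries and 12163 (93.04%) reached at least 1 CPM in all 3. The median gene stood at 24.56 CPM. CPM is the share of a library's counts and grows with transcript length, so an order of genes by CPM is an order of counts. Levels per length are given in transcripts per 1000000 transcripts (TPM), computed with the exon length of each gene.

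Counts were spread over many genes. The most abundant gene took 2.23 ± 0.136% of the counts (SD, n = 3 throughout), the top 10 took 6.36 ± 0.239%, the top 100 took 19.3 ± 0.229% and the top 1000 took 55.4 ± 0.331%. Thus 167 genes held 25% of the counts, 758 held 50% and 5230 held 90%. The 95 genes at or above 1000 CPM held 18.8% of the counts, and the 2092 genes between 100 and 1000 CPM held 52.8%. Protein-coding genes held 99.23% of the counts and genes annotated as non-coding RNA 0.720%. The mitochondrial genome held 0.863, 0.768 and 0.813% of the counts in WT 1, WT 2 and WT 3.

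The gene with most counts was Cyp4g1, the oenocyte cytochrome P450 that completes the synthesis of cuticular hydrocarbons. It stood at 23829 CPM in WT 1, 21927 in WT 2 and 21187 in WT 3. It was followed by ninaE, the rhodopsin of the outer photoreceptors, at 8515, 8225 and 8059 CPM, and by the translation elongation factor gene eEF1alpha1 at 7650, 7488 and 7167 CPM. In all 3 libraries these genes held the same order and did not overlap. The mitochondrial gene mt:CoI, a subunit of cytochrome c oxidase, came next at 4670, 4263 and 4580 CPM.

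Of the 20 genes with most counts, 9 belonged to a tissue list or named family described below, and 11, 5 of them known only by CG numbers, did not. Adh, alcohol dehydrogenase, had 4554, 3839 and 3882 CPM, and its neighbour Adhr, which shares exons with it, had 4549, 3834 and 3877. The deposited counts of this pair agreed within 2% in all 9 libraries, so the reads of Adh and Adhr could not be told apart in the table. Ald1, the glycolytic aldolase, stood at 3159 ± 79.7 CPM, and Mal-A1, a gut maltase, at 2851 ± 274 CPM. The lipid carrier precursor gene apolpp stood at 2489 ± 261 CPM, the fatty acid desaturase gene Desat1 at 2249 ± 219 CPM, and Pepck1, an enzyme of gluconeogenesis, at 2137 ± 121 CPM. The others were the elongation factor gene eEF2 (3292 CPM), the ejaculatory bulb gene Ebp (2747 CPM), the neuropeptide-like precursor gene Nplp2 (2614 CPM) and the constitutive chaperone gene Hsc70-4 (2376 CPM). Known only by CG numbers were CG2233 (3342 CPM), CG17097 (3105 CPM), CG4836 (2557 CPM), CG18628 (2161 CPM) and CG34220 (2159 CPM).

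Per exon length the order changed, and small secreted peptides moved up. Cyp4g1 stayed highest at 15462 ± 569 TPM, and CG18628, with a coding sequence of 189 bases, came next at 10216 ± 408 TPM. The accessory gland genes Mst57Db (7035 ± 828 TPM), Acp54A1 (6025 ± 943 TPM), Acp95EF (4120 ± 296 TPM), Mst57Da (3887 ± 354 TPM) and Sfp87B (3015 ± 307 TPM) were among the top 20, as was Dup99B of the ejaculatory duct (3005 ± 245 TPM). Their coding sequences ran from 120 bases in Mst57Db to 261 in Sfp87B. ninaE stood at 8225 ± 62.3 TPM and eEF1alpha1 at 4767 ± 31.2 TPM, both within a narrow range of the 3 libraries. Also in the TPM top 20 were Nplp2 (6765), CG43147 (4774), mt:CoI (4635), the ribosomal protein gene RpL41 (4029), CG14645 (3755), CG2233 (3574), mt:CoIII (3323), mt:CoII (3120), Adhr (3049) and CG13315 (3014). Both top 20 lists shared 8 genes.

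**Figure D1:**
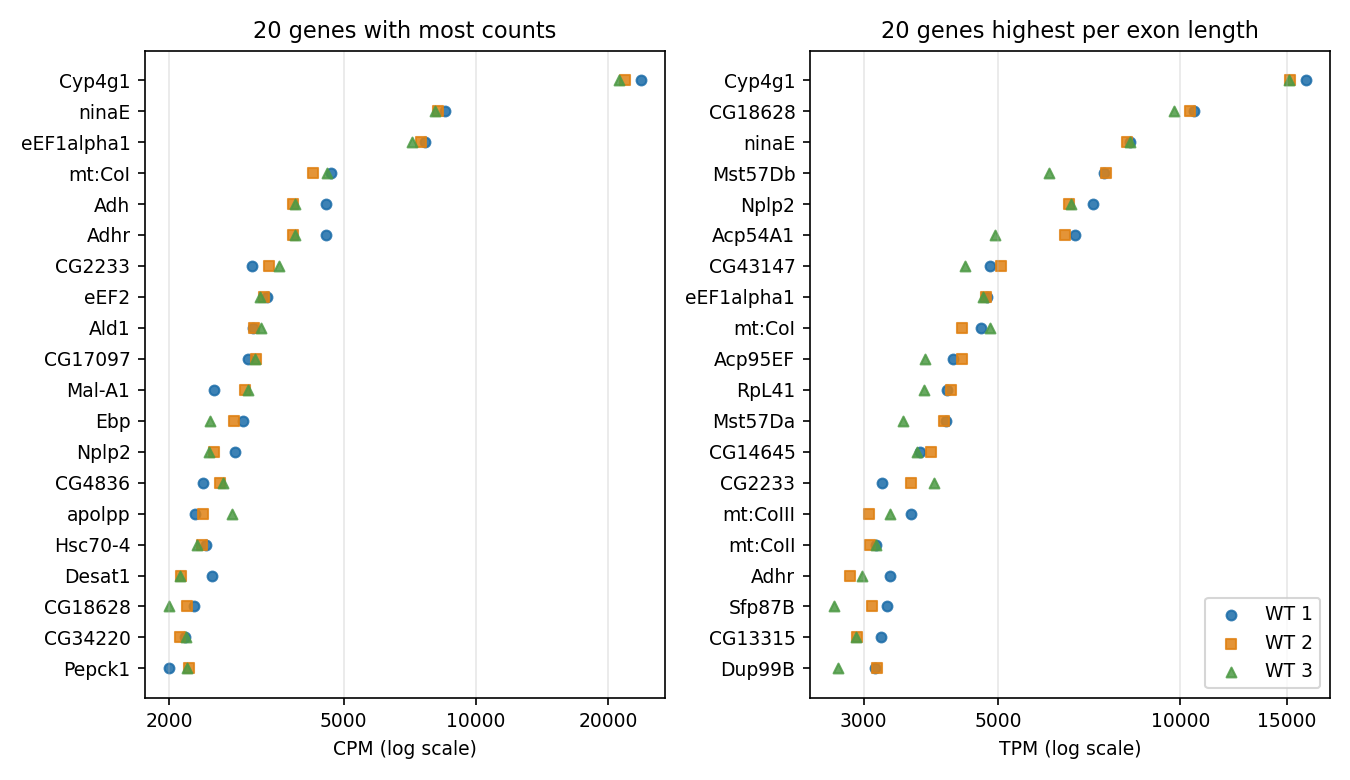
The 20 genes with most counts in CPM (left) and the 20 highest per exon length in TPM (right), 1 point for each WT library, both on log axes. Cyp4g1 leads both panels, and peptide genes of the accessory gland such as Mst57Db and Acp54A1 appear in the TPM panel.

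The 100 genes highest by TPM coded for short proteins. Their median coding length was 406.5 bases and 57% were under 450 bases, against 11.5% of all protein-coding genes, whose median was 1260 bases. Among the 100 highest by CPM the median was 1501.5 bases and 10% were under 450 bases. The TPM list held 30 cytosolic ribosomal protein genes, 10 accessory gland genes and 5 genes of the ejaculatory duct and bulb, whereas the CPM list held 9, 2 and 3. In both lists 22 genes were known only by CG numbers.

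Tissues were then described by lists of marker genes. A list's share of counts depends on which genes it holds and is not a share of tissue mass. Of 323 entries in the tissue lists, 303 were matched to a listed gene; the others are not analysed here.

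Transcripts of the male reproductive tract were found in every WT library. The 57 matched accessory gland genes held 1.28, 1.26 and 1.09% of the counts in WT 1, WT 2 and WT 3, and 4.42% of TPM on average. WT 3 was the lowest, and 56 of the 57 genes reached 1 CPM. Acp36DE, a protein needed for sperm storage, had most counts at 1614, 1654 and 1523 CPM, whereas Mst57Db was the highest per length. SP, the sex peptide that alters female behaviour after mating, stood at 223, 232 and 173 CPM, lowest in WT 3 like the list as a whole. Short genes as a whole were also lower in WT 3, as given with gene length at the end. The member under 1 CPM was Sfp79B at 0.928 CPM.

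All 8 genes of the ejaculatory duct and bulb exceeded 100 CPM and together held 0.851, 0.808 and 0.726% of the counts. Ebp, which codes for the major protein of the bulb, had 2951, 2816 and 2476 CPM. EbpIII followed at 1913, 1612 and 1603 CPM, and Est-6, the seminal esterase, at 1154, 1205 and 1114 CPM. WT 3 was the lowest for each of these.

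The 46 matched testis genes of the list named late spermatid held 1.53, 1.49 and 1.45% of the counts, and all reached 1 CPM. The stage at which each is transcribed was not examined. Leucyl aminopeptidases that fill the sperm mitochondrial derivative had most counts, and S-Lap1 was also highest per length at 1317 TPM. S-Lap1 had 1782, 1789 and 1734 CPM, S-Lap7 had 1568, 1559 and 1514 CPM, and loopin-1 had 1461, 1431 and 1419 CPM. S-Lap3 had the smallest spread between the WT libraries of all 2187 genes with a mean of at least 100 CPM. Its normalised CPM values were 989, 986 and 988, a fold of 1.003 between the highest and the lowest. At its lowest count, counting error alone has a coefficient of variation of 0.683%, so this fold lies within counting error. Fertility genes of the Y chromosome were low, with 9.29 CPM for kl-2, and the 16 Y-linked entries held 0.00734% of the counts. PRY, WDY and kl-3 each had more than 1 of these entries. ARY was the highest entry at 17.7, 17.7 and 17.9 CPM.

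Markers of females were low. Of 18 ovary and eggshell genes 11 were listed, and together they held 0.00373% of the counts. The highest, also per length, was grk, which codes for the ligand that patterns the egg, at 25.3, 27.0 and 25.3 CPM. The chorion gene Cp15 had 4.30 CPM, and the others were under 2 CPM on average. The yolk protein genes Yp1, Yp2 and Yp3 stood at 3.12, 2.53 and 11.9 CPM, and fit, a satiety signal gene grouped with them, at 112 CPM. Of the dosage compensation genes, the male-specific RNA roX1 stood at 360, 391 and 443 CPM, roX2 at 9.58, 10.1 and 8.68 CPM, and msl-2 at 32.1, 35.5 and 34.4 CPM.

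Within that low range some genes stood out in WT 3. The ovary and eggshell list as a whole held 0.003555, 0.003608 and 0.004027% of the counts in WT 1, WT 2 and WT 3, a fold of 1.133. Its largest member grk, with 69.3% of the list's counts, was highest in WT 2. The vitelline membrane gene Vm26Aa had 0 counts in WT 1, 0 in WT 2 and 58 in WT 3, Vm26Ab had 0, 1 and 23, and Vm34Ca had 0, 0 and 21. These genes code for the inner layer of the eggshell, and osk, a maternal gene of the egg, had 3, 1 and 24 counts. Yp1 had 62, 42 and 112 counts and Yp2 45, 33 and 96, while Yp3 had 293, 256 and 291 without such an excess of raw counts in WT 3. These counts are not scaled to depth. WT 3 was the shallowest library, at 21777118 counts against 25145748 and 23892247, so raw counts understate its levels beside the others. The genes of this paragraph were chosen after their values were seen.

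Muscle genes, 31 in number, held 1.36, 1.41 and 1.45% of the counts but 0.607% of TPM, and their median exon length was 2613 bases against 1926 for all genes at or above 5 CPM. SERCA, the calcium pump of the sarcoplasmic reticulum, had 1732, 1792 and 1841 CPM, and Mhc, the muscle myosin heavy chain, had 1158, 1440 and 1560 CPM. Mf, myofilin of the thick filament, had 1188, 1146 and 1155 CPM. Per length Mlc2, a myosin light chain gene, was the highest of the list at 578 TPM, followed by Argk1, arginine kinase, at 512 TPM, and the giant protein gene sls was at 18.2 TPM.

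The 45 matched gut genes held 1.77, 1.74 and 1.80% of the counts, with a narrow spread of the sum. The members moved in different directions beneath that sum. Mal-A1 had 2536, 2984 and 3033 CPM, Mal-A6, another maltase gene, 1230, 1464 and 1420, and Mur18B, a mucin-related gene, 1155, 1350 and 1401; each was lowest in WT 1. The serine protease gene Jon65Aiv had 1461, 1078 and 1003 CPM and the trypsin gene alphaTry 1226, 1003 and 1006 CPM; both were highest in WT 1. All 14 Jonah protease genes together held 0.570, 0.452 and 0.466% of the counts.

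Fat body genes, 20 in number, held 1.42, 1.51 and 1.65% of the counts. The gene apolpp had 2290, 2393 and 2784 CPM, and tobi, an alpha-glucosidase gene under the control of insulin, had 1628, 2003 and 2368 CPM. FASN1, fatty acid synthase, had 1863, 2318 and 2189 CPM, and Tsf1, transferrin, had 1896, 1956 and 2127 CPM. These were lowest in WT 1, whereas Desat1 was highest there, at 2502 CPM against 2130 and 2116. Per length tobi and Desat1 were the highest of the list, at 1507 and 1427 TPM. The AKH receptor gene AkhR named in the series title stood at 77.5, 86.8 and 91.9 CPM in these controls.

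The 29 eye genes held 1.24, 1.22 and 1.20% of the counts, most of it ninaE, and 0.394% without ninaE. The arrestin genes Arr2 (617, 588 and 593 CPM) and Arr1 (543, 539 and 495 CPM) followed. The spread of the eye sum was the smallest of the lists of tract, muscle, gut, fat body and eye, with an SD of 0.0201 percentage points. Markers of neurons and glia held 0.144 ± 0.0109% of the counts. The synaptic vesicle genes nSyb (192 CPM) and Syt1 (163 CPM) had most counts, and nSyb was also highest per length (74.7 TPM). Hemocyte markers held 0.0832%, with most counts in Hml (177 CPM), PPO1 (167 CPM) and crq (166 CPM), and PPO1 was highest per length (113 TPM). Markers of the Malpighian tubule held 0.0551%, with most counts in ClC-a (108 CPM), Oatp58Dc (108 CPM) and Drip (101 CPM), and Uro, urate oxidase, was highest per length (88.8 TPM). The oenocyte list rested on Cyp4g1: it held 2.30% of the counts with that gene and 0.0680% without it. Its next members were FASN3 at 444, 670 and 693 CPM and FarO at 69.0, 83.8 and 77.1 CPM, both lipid synthesis genes, while the female hydrocarbon genes eloF and Fad2 were at 1.29 CPM or less in each library.

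**Figure D2:**
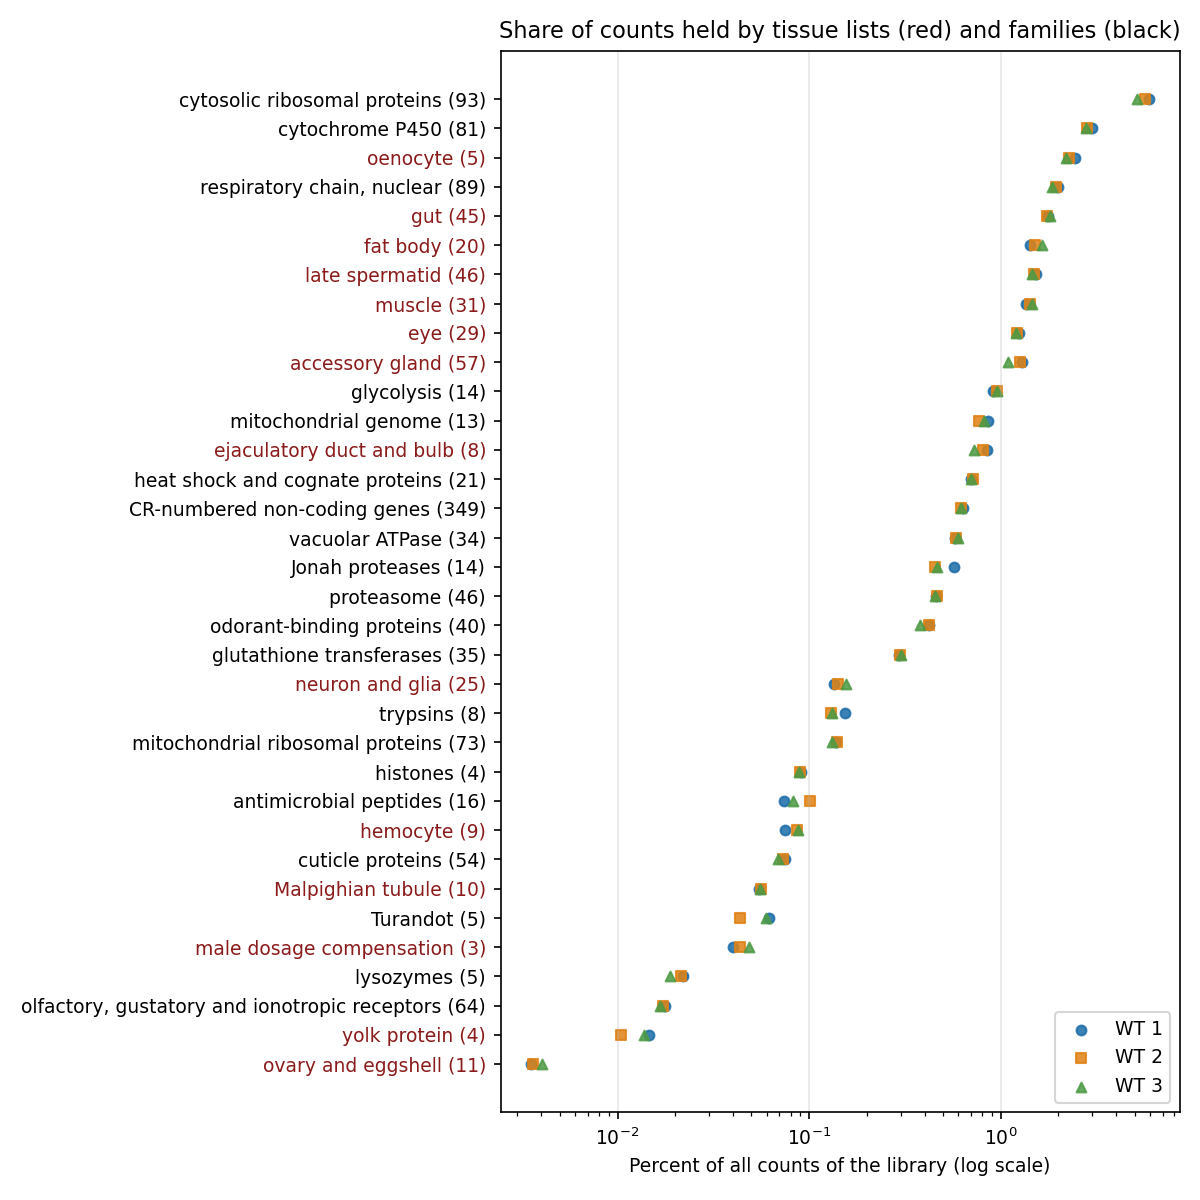
Share of each WT library's counts held by tissue lists (red names) and gene families (black names), on a log axis, with the number of matched genes in brackets and 1 point for each library. The lists span from 0.00373% for ovary and eggshell to 5.57% for cytosolic ribosomal proteins on average.

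The families of this paragraph, shared by many cell types, held from 0.136% to 5.57% of the counts on average. The 93 cytosolic ribosomal protein genes held 5.93, 5.64 and 5.15% of the counts and 9.81% of TPM. All 93 exceeded 1 CPM and 80 exceeded 100 CPM. RpL5 (1467 CPM) and RpL3 (1386 CPM) had most counts, whereas RpL41 (4029 TPM) and RpL39 (2607 TPM) were highest per length. In contrast, no gene of the 73 for mitochondrial ribosomal proteins reached 100 CPM, and the family held 0.136%, with most counts in mRpS5 and mRpL28 and the highest TPM in mRpS7 (82.9). The 89 nuclear genes of the respiratory chain held 1.93 ± 0.0636%. The ATP synthase subunit genes ATPsynbeta (1581 CPM) and ATPsynC (1195 CPM) had most counts, and ND-MLRQ, of the NADH dehydrogenase complex, was highest per length (1312 TPM). Proteasome genes held 0.461, 0.464 and 0.456%, a highest-to-lowest fold of 1.018, with most counts in Rpn6 and Prosbeta7 and the highest TPM in Prosalpha2 (283). Glycolytic genes held 0.942%, with most counts in Ald1 and Eno, heat shock and cognate genes 0.704%, with most in Hsc70-4 and Hsp83, and vacuolar ATPase genes 0.587%, with most in Vha16-1 and Vha55. In these 3 families Ald1 (1312 TPM), Hsc70-4 (1382 TPM) and Vha16-1 (555 TPM) were also highest per length.

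Families of detoxification and smell were described in the same way. Of the 2.86% of counts held by 81 cytochrome P450 genes Cyp4g1 took 78.0%, and Cyp6g1, known for insecticide resistance, came next at 876 CPM, as it did per length at 669 TPM. Glutathione transferase genes held 0.298%, with most counts in GstD1 (549 CPM) and GstE12 (449 CPM) and the highest TPM in GstD1 (1030). The 40 odorant-binding protein genes held 0.407%. Obp99c (745 CPM) and Obp56g (576 CPM), which is also on the ejaculatory list, had most counts, and Obp51a was highest per length (1874 TPM). The 64 listed receptor genes for smell and taste held 0.0172%; 27 reached 1 CPM, and Ir75d, at 87.2 CPM, held 50.7% of their counts. Ir75d was also highest per length at 59.6 TPM, with Or59b next at 6.71 TPM. The 54 cuticle protein genes held 0.0722%, with most counts in Cpr65Au and Cpr49Ab, and lysozyme genes 0.0208%, with most in LysP and LysD; Cpr65Au (599.6 TPM) and LysP (312 TPM) were also highest per length.

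Non-coding and unnamed genes were also measured. The 5231 genes known only by CG numbers held 28.6 ± 0.172% of the counts, with most in the 5 named above. The 349 genes with CR numbers held 0.626%, with most counts in CR42862 at 1583, 1665 and 1791 CPM. CR42862 shares exons with CG33229, so some of its reads may be those of CG33229. Next by counts were CR32652 (447 CPM), CR42491 (402 CPM, overlapping RpL22), CR18854 (373 CPM, overlapping IP3K1) and CR32658 (345 CPM). Per length CR42491 was highest at 849 TPM. CR genes were grouped by current name, and CR32652 was protein-coding by its deposited gene type.

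The 3 WT libraries were then compared with each other, on CPM normalised by the trimmed mean of M-values (TMM). The common biological coefficient of variation, edgeR's estimate of the spread beyond counting error, was 6.88%. By pairs it was 6.29% for WT 1 and WT 2, 8.85% for WT 1 and WT 3 and 4.99% for WT 2 and WT 3. Among 10683 genes with a mean of at least 5 CPM, the median fold between the highest and the lowest library was 1.113 and the 95th percentile 1.335. A fold of at least 1.5 was reached by 134 genes (1.25%) and a fold of at least 2 by 26 (0.243%). Of the 134, 42 were highest in WT 1, 29 in WT 2 and 63 in WT 3, where the shares over all 10683 genes were 39.3, 24.2 and 36.5%. Lowest in WT 1 were 79 of the 134, for which the share over all genes was not counted. None of the 95 genes at or above 1000 CPM reached 1.5-fold. With 1 group of 3 there is no contrast to test, so these are descriptions without p-values.

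**Figure D3:**
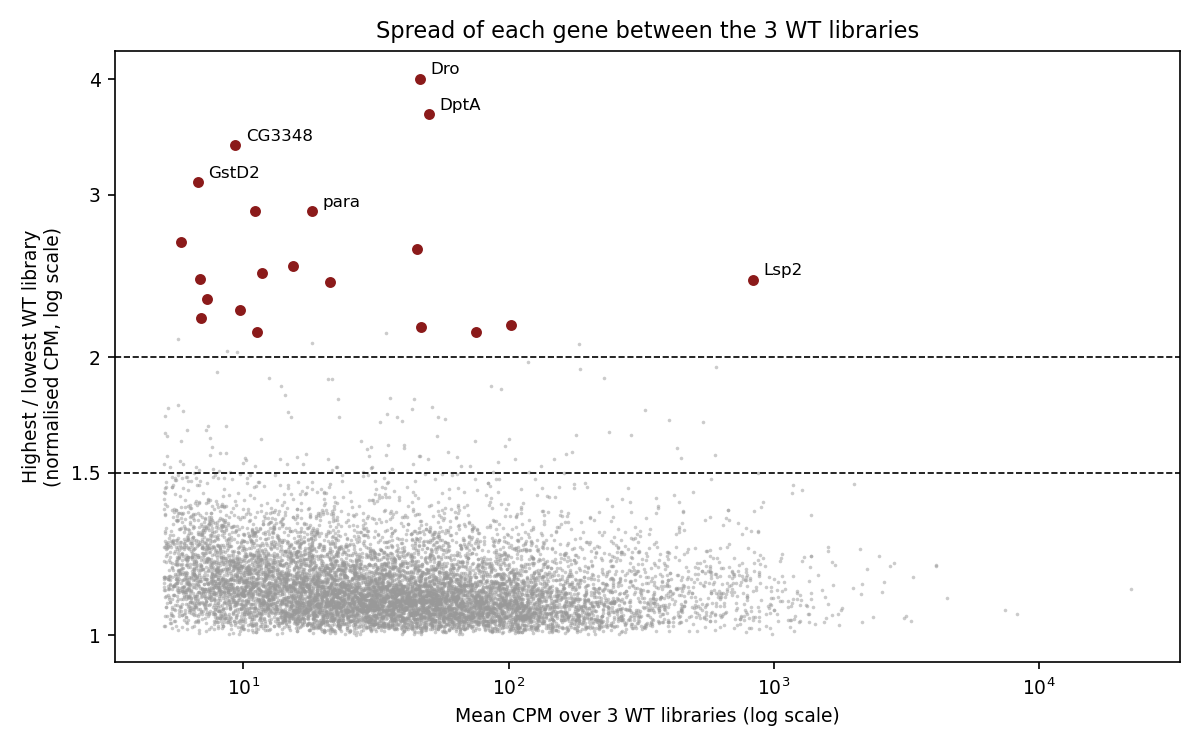
Fold between the highest and the lowest WT library (normalised CPM) against mean CPM, both on log axes, 1 point for each of 10683 genes with a mean of at least 5 CPM; red points are the 20 genes of largest fold and dashed lines mark 1.5-fold and 2-fold. Dro reaches 4.01-fold, and Lsp2 is the red point of highest mean level.

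The antimicrobial peptide genes Dro and DptA had the largest folds, and Mtk was also among the 20 most variable genes. These peptides are secreted by fat body and epithelia after infection, downstream of the Toll and Imd pathways. Dro, drosocin, stood at 16.5, 66.3 and 56.4 normalised CPM in WT 1, WT 2 and WT 3, a fold of 4.01. DptA, diptericin, stood at 20.6, 75.4 and 54.5, a fold of 3.67, and Mtk, metchnikowin, at 23.4, 61.4 and 50.8, a fold of 2.62. In each of these WT 1 was lowest and WT 2 highest.

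Of 13 antimicrobial peptide genes at or above 5 CPM, 5 reached 1.5-fold, against 1.25% of all genes: Dro, DptA, Mtk, AttC and DptB. AttC, an attacin, stood at 80.7, 159 and 116 normalised CPM. Other members did not take part to that extent. Drs, drosomycin, had 28.4, 33.5 and 26.9 CPM. The drosomycin-like genes Drsl5 (198, 198 and 184 CPM) and Drsl4 (190, 210 and 178 CPM), the 2 most abundant of the family, also stayed below 1.5-fold. The family as a whole held 0.0736, 0.101 and 0.0827% of the counts.

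The same genes varied within the other groups, in another order of libraries. Dro had 12.3, 32.6 and 101 normalised CPM in GP/M 1, 2 and 3, and 29.1, 13.9 and 21.2 in GP/P 1, 2 and 3. DptA had 20.98, 33.6 and 205 in GP/M and 45.2, 17.7 and 13.5 in GP/P. The highest library was number 3 in GP/M, number 1 in GP/P and number 2 in WT for both genes.

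Lsp2, a larval serum storage protein gene also active in the adult fat body, stood at 510, 764 and 1239 normalised CPM, a fold of 2.43 and the only gene of the 20 above 500 CPM. Lsp2 was also highest in library 3 of GP/M (568, 756 and 887) and of GP/P (617, 664 and 955). Mal-B1, a maltase gene, stood at 26.7, 57.4 and 55.7, and the lysosomal mannosidase genes LManIII and LManIV at 62.0, 110 and 134 and at 5.73, 10.5 and 12.9. The lipase gene Lip3 had 8.59, 16.2 and 21.6, and Npc2e, of a sterol-binding family, 3.82, 3.72 and 9.90. All of these but Npc2e were lowest in WT 1, and Npc2e was nearly level in WT 1 and WT 2.

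The remaining genes of the 20 were of mixed kinds. para, the voltage-gated sodium channel gene of neurons, stood at 9.75, 16.5 and 28.1 normalised CPM, a fold of 2.88, and was highest in library 3 of GP/M (28.3) and GP/P (24.7) as well. GstD2, a glutathione transferase gene, stood at 9.82, 7.14 and 3.18, with a fold of 3.09, and its fold was 1.28 within GP/M and 1.10 within GP/P. TotM, a stress-induced Turandot gene, stood at 30.2, 12.5 and 20.9, and Odc2, an ornithine decarboxylase gene, at 10.2, 6.18 and 4.19. The 7 known only by CG numbers were CG3348, CG34316, CG17192, CG10505, CG14499, CG8708 and CG15358, with folds from 2.13 for CG15358 to 3.40 for CG3348. The lowest count behind any of the 20 genes was 69, for which counting error alone has a coefficient of variation of 12.0%. Just outside the 20, Amyrel, an amylase-related gene, had a fold of 2.126.

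As a set, 15 of these 20 genes reached 1.5-fold in GP/M and 14 in GP/P, where 1.23% and 0.646% of all 10683 genes did. For 16 of the 20 the highest library in GP/M had the same replicate number as in WT, and for 10 of the 20 in GP/P. Over all 10683 genes that share was 51.3% in GP/M and 51.5% in GP/P. The study ran 1 set of samples in each experimental replicate.

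**Figure D4:**
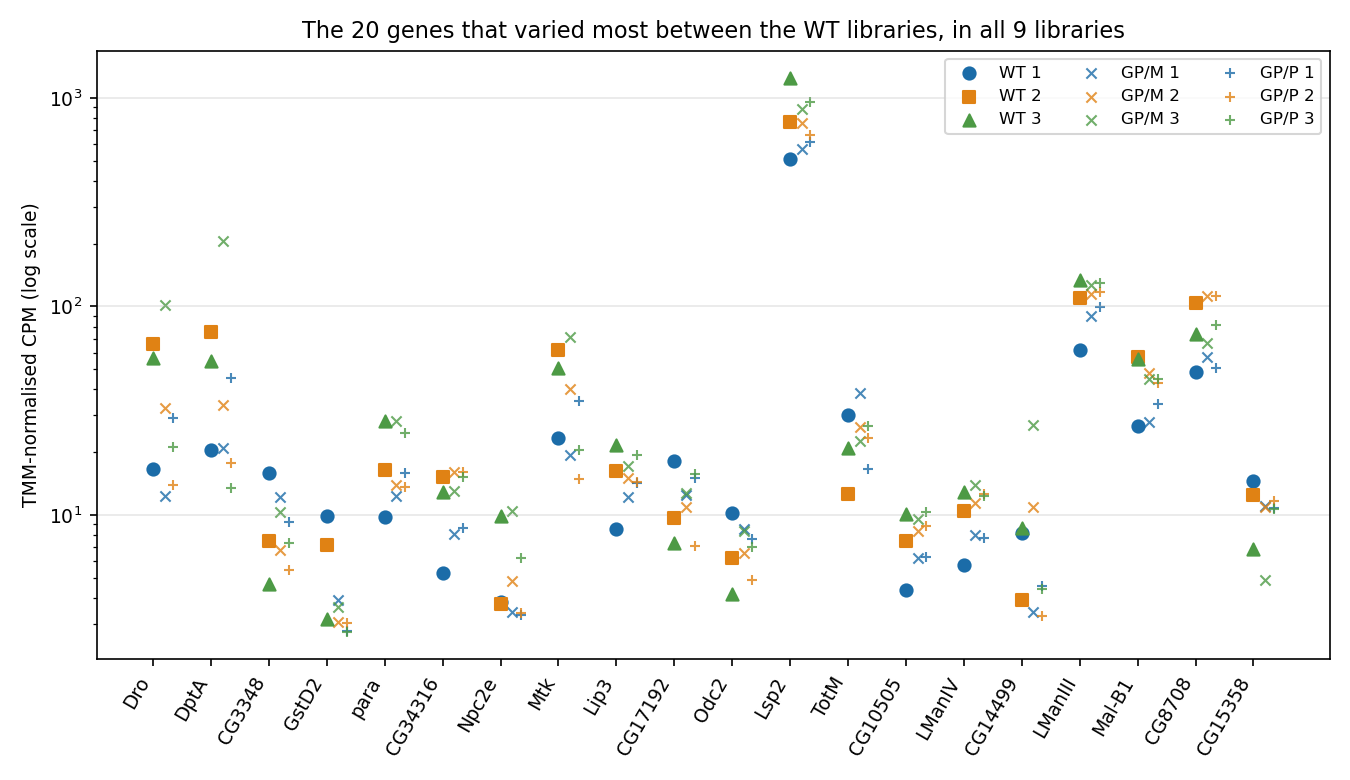
TMM-normalised CPM (log axis) of the 20 genes that varied most between the WT libraries, with large filled symbols for WT, crosses for GP/M and plus signs for GP/P, coloured by replicate number. Dro, DptA and Mtk are highest in WT 2, GP/M 3 and GP/P 1, whereas Lsp2 and para are highest in library 3 of each group.

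Among lists, gut genes had 6 of 43 members at 1.5-fold or more (Mal-B1, LysB, Mal-A4, Npc1b, Jon74E and Jon99Cii) and fat body genes 3 of 18 (Lsp2, Lsp1beta and Lsp1alpha), against 1.25% of all genes. Turandot genes had 2 of 4 (TotM and TotC), accessory gland genes 2 of 56 (Sfp33A2 and Sfp36F) and the oenocyte list 1 of 3 (FASN3). Muscle (Act88F), eye (ninaD) and neuronal (para) lists had 1 of 31, 1 of 29 and 1 of 24. The late spermatid list, cytosolic ribosomal protein genes, proteasome genes and nuclear respiratory chain genes had 0. These lists were assembled with earlier results of these data known.

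At the other end, 22.6% of the 2187 genes with a mean of at least 100 CPM stayed within 1.05-fold. After S-Lap3 the smallest folds belonged to Cyt-c-p, the somatic cytochrome c gene, with 261, 261 and 262 normalised CPM, and to CG14767 with 199, 199 and 199. They were followed by CG14540, the vacuolar ATPase gene Vha68-3, Past1, HINT1, CG6279, the calcineurin subunit gene CanB2 and cola, all within 1.0076-fold. At the lowest counts of these genes, counting error alone has a coefficient of variation from 0.683% for S-Lap3 to 2.09% for HINT1. Folds this small lie within that error, so their order is no measure of stability. The counts of cola agreed within 2% with those of swif, whose exons it overlaps.

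Differences between the WT libraries moved with gene length. The genes with a mean of at least 5 CPM and a known exon length were split by that length into 5 groups of nearly equal size. In the shortest group, with a median of 746 bases, the median log2 difference of WT 3 from WT 1 was -0.13, and in the longest group, with a median of 5627 bases, it was 0.19. WT 2 lay between, at -0.06 and 0.10 from WT 1 in the same groups. Some lists followed this slope and others did not. Over all 10650 of these genes, 5149 were higher in WT 3 than in WT 1, with a median log2 difference of -0.007. Of 92 cytosolic ribosomal protein genes, with a median of 909 bases, 1 was higher in WT 3 than in WT 1, and the median log2 difference was -0.20. Of 56 accessory gland genes, with a median of 530 bases, 3 were higher in WT 3, with a median of -0.20, and 0 of 8 ejaculatory genes were, with a median of -0.25. Of 24 neuronal and glial genes, with a median of 7144 bases, 19 were higher in WT 3, with a median of 0.22. In contrast, of 30 glutathione transferase genes, with a median of 878 bases, 17 were higher in WT 3, with a median of 0.006. Of 29 eye genes, with a median of 2297 bases, 14 were higher in WT 3, with a median of -0.013. That lay near the -0.02 of all genes in the length group of 1598 to 2365 bases. The exons of para span 16309 bases in the reference annotation, while those of Dro, DptA and Mtk span 754, 496 and 268. These 3, named for their large folds, were higher in WT 3 than in WT 1, against the direction of length. The family as a whole was not: of 13 antimicrobial peptide genes, with a median of 399 bases, 5 were higher in WT 3, with a median of -0.075. The part of length in the spread of each list was not tested.

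**Figure D5:**
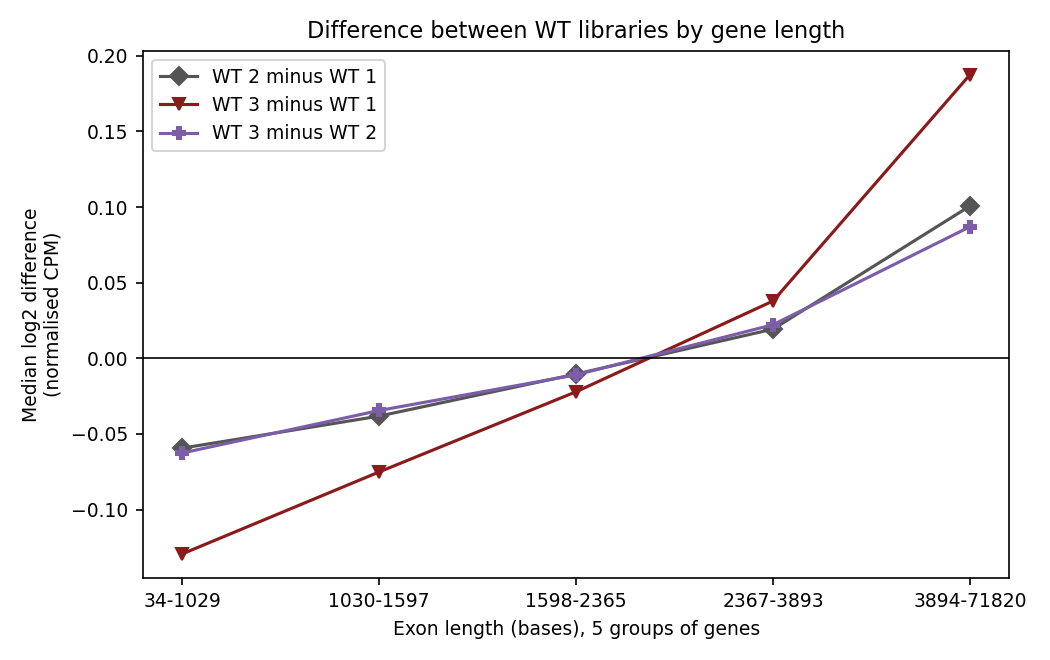
Median log2 difference in normalised CPM for each pair of WT libraries, in 5 groups of genes by exon length in bases. From the shortest to the longest group the median of WT 3 minus WT 1 goes from -0.13 to 0.19, and the other pairs follow with smaller values.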

How the data were processed

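Poly(A) RNA of whole flies was sequenced in 9 libraries, and the 3 WT libraries were used for every level reported. The deposited tables hold raw counts per gene, made by the authors; per the submitters' processing notes, the tools were Novoalign and DESeq (versions not given in the sources used here) and the genome was dm3. The 18 columns of normalised values were not used. WT counts were the same in both tables used (0 values differed). Gene IDs were matched to the BDGP6 annotation, 12561 by ID and 459 by symbol, and 53 had no match; the builds differ, so no coordinates are given. CPM was computed on total counts (21777118 to 25145748), TPM with the summed exon length, and spread as highest over lowest TMM-normalised CPM (edgeR 4.0.16; factors 0.998 to 1.003) at a mean of at least 5 CPM. In simulated data, 200 genes among 12663 had a coefficient of variation of 40% and the others 5%, and 79.5% of the 200 were recovered in the top 200 by fold. The simulation had no shift with gene length. Tagwise values of the real 20 most variable genes ran from 19.35% for CG15358 to 34.4% for Dro, so the recovered share does not carry over to them. Named genes were the top 20 by CPM and by TPM, the leading members of each list by counts, the 20 most and 10 least variable, and all other genes named, as examples of lists or otherwise, were chosen after their values were seen. The members and lists were chosen with earlier results of these data known. Alternatives changed the scale, normalisation (DESeq2 1.42.0 size factors, total counts), filters, list members and libraries. Genes with overlapping exons and counts within 2% in all 9 libraries formed 132 pairs, all on the same strand. Analyses used R 4.3.3 and Python 3.11.15. Promoter sequences were not analysed here.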

Additional observations from a re-analysis of the deposited data

How the results depend on the processing

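Normalisation by DESeq2 size factors or by total counts left the counts of variable genes within 1.5 times the reported ones. A minimum mean of 1 CPM gave 447 genes at 1.5-fold and 75 at 2-fold, and a minimum of 20 CPM gave 76 and 10. Leaving out 1 WT library gave 26 to 103 genes at 1.5-fold and 5 to 21 at 2-fold, fewest without WT 1, and a coefficient of variation of 4.98 to 8.85%; fewer libraries give a smaller range. Per exon length, the top 10 genes held 7.20% and the top 100 held 24.5%, and without mitochondrial transcripts the top 100 held 19.0%. Per exon length the lists held 4.42% (accessory gland), 1.42% (ejaculatory), 1.78% (late spermatid), 0.607% (muscle), 2.12% (gut), 0.787% (fat body) and 1.05% (eye). Without the most abundant member they held 1.05, 0.520, 1.31, 1.23, 1.48, 1.28 and 0.394% of counts. Leaving out a WT library gave 1.18 to 1.27% (accessory gland), 0.767 to 0.829% (ejaculatory), 1.47 to 1.51% (late spermatid), 1.38 to 1.43% (muscle), 1.75 to 1.78% (gut), 1.47 to 1.58% (fat body) and 1.21 to 1.23% (eye). An alternative chosen after seeing the data counted near-identical overlapping genes once, which removed 1.745% of all counts, and gave 1.80% for gut and 1.24% for eye. Of the 20 most variable genes 19 were shared with the 20 of largest tagwise dispersion. Both measures come from the same 3 libraries, so this overlap is no independent check. Depth limits genes under 5 CPM, where 108 counts or fewer lie behind a value in the shallowest library. No paired analysis was possible because no groups were compared.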

Other observations

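Genes of the circadian clock were looked at after tim appeared shortly after the 20 most variable genes, so they were chosen after their values were seen. The gene tim, whose protein represses its own transcription with period, stood at 122, 253 and 178 normalised CPM in WT 1, WT 2 and WT 3, a fold of 2.07. In GP/M it stood at 124, 240 and 191 and in GP/P at 192, 224 and 209, highest in library 2 of each group. vri, another output of the clock, stood at 72.1, 101 and 83.5 CPM and per at 18.5, 25.5 and 21.9 CPM, also highest in WT 2. Pdp1 stood at 221, 248 and 262 CPM, highest in WT 3, and cwo at 70.9, 93.4 and 64.7 CPM, highest in WT 2. In normalised CPM, cwo was highest in library 3 of GP/M (103) and of GP/P (83.3), and Pdp1 in GP/M 2 (253) and GP/P 3 (259). Clk, the activator, was at 44.4, 42.2 and 45.7 CPM, and cry, the blue-light receptor gene, at 220, 195 and 210 CPM. The labels used here give no time of day.

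A search for genes with at least 20 counts in 1 WT library and at most 2 in each of the others, set after seeing the eggshell values, found 0 genes for WT 1, 0 for WT 2 and 3 for WT 3. The 3 were the vitelline membrane genes Vm26Aa, Vm26Ab and Vm34Ca. Counts of Vm26Aa in the other groups were 15 in GP/P 3 and 2 in GP/M 3, and 0 in libraries 1 and 2 of both groups. Vm34Ca had 9 counts in GP/P 3, 1 in GP/M 3 and 0 in libraries 1 and 2 of both groups. Vm26Ab had 2, 3 and 1 counts in GP/M 1, 2 and 3, and 2, 0 and 10 in GP/P 1, 2 and 3. The gene osk had 17 counts in GP/P 3 and 6 in GP/M 3, against at most 2 in libraries 1 and 2.

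Thor, the translational repressor 4E-BP and a target of FOXO, stood at 446, 278 and 254 CPM in WT 1, WT 2 and WT 3, highest where Lsp2 and Amyrel were lowest. It was named after its values were seen. In 5 genes the deposited symbol column held a date in place of a name, namely Septin1, Septin2, Septin4, Septin5 and dec, and these were matched by their IDs.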
